A study of Mus musculus with 6 samples.

Results

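The genes described here are 49 cell cycle and DNA replication genes, chosen by symbol from 21374 genes in a table of bulk RNA sequencing of mouse colon. They comprise 20 genes that act in S phase, 8 regulators of the steps into S phase and into mitosis, and 21 genes that act in mitosis. All 49 were found in the table. The libraries came from C57BL/6 male mice, 3 labelled wild type and 3 labelled Otud1-/-, the deletion of a gene for a deubiquitinase. Both labels shared one model of colitis-associated tumours. At 6 weeks of age the mice received azoxymethane, a carcinogen, into the peritoneum on day 0, then dextran sulfate sodium, an agent harmful to the colon lining, at 1.5% for 4 days followed by 14 days of water, in 3 cycles. Colon was taken at day 81, at an age of 18 weeks. RNA was extracted from distal colon beside the tumours, after these had been removed. No mice without this treatment were analysed here, so each comparison is between genotypes within treated colon. Nothing in the labels ties each library to an animal of its own, and p-values therefore refer to the spread among libraries, part of which may be technical.

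Dividing cells pass a fixed order of steps. In G1 the MCM helicase is loaded onto origins of replication by Cdc6 and Cdt1, and cyclin E with Cdk2 then helps to start S phase, in which the helicase unwinds DNA, the Pcna clamp holds the polymerases and ribonucleotide reductase supplies deoxynucleotides. Genes of this step are typically induced by E2F factors, whereas genes of G2 and mitosis are induced later by B-Myb and FoxM1 with the MuvB complex, after the same complex has held them silent in resting cells. In the colon most cycling epithelial cells lie in the lower crypt, where Wnt signals maintain them, and immune cells can divide there too.

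The unit is the normalised read count, reads of a gene divided by the size factor of its library, and the libraries held 15300937 to 19406407 recovered reads. Differences were fitted with limma on log2(normalised read count + 1), libraries labelled Otud1-/- minus wild type, so a log2 difference slightly understates that of genes with few reads. Called means an adjusted p under 0.05 over all 21281 genes tested. Values of single libraries are given in the order 1, 2 and 3 of each label. Otud1 itself went against its label. It was 111, 45.1 and 48.9 normalised reads under the wild type label and 141, 150 and 208 under the Otud1-/- label, a log2 difference of 1.37 ± 0.35 (SE) with a limma adjusted p of 0.0934 (DESeq2 0.0148, edgeR 0.122). Its two-sided p by exact permutation was 0.1, and 3 libraries against 3 allow none smaller. The genotypes are therefore named below by their labels only, and the deleted stretch is not given in the sources used here, so reads outside it cannot be told apart from intact transcript. Markers of distal colon and of epithelium were above 0 in every library.

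None of the 49 genes was called by limma, against 0.949% of all genes tested. Their differences nevertheless leaned one way. Of the 49, 46 had a positive log2 difference, against 51.7% of all genes, and the median was 0.46 against 0.02. At an unadjusted p under 0.05 there were 25, all with more normalised reads in the libraries labelled Otud1-/-, a direction in which 9.5% of all genes passed that level. This count was 16 without wild type 1, 11 without replicate 1 of both labels and 38 with reads scaled to 12 epithelial genes. The 9.5% belongs to the main settings, and the share of all genes under these alternatives is not given, so these counts cannot be read against it. In 19 the lowest library labelled Otud1-/- lay above the highest labelled wild type, which held for 13.0% of all genes, and in 0 was the order the other way, against 13.3%. The remaining 30 overlapped. The 49 genes moved together across libraries, with Otud1-/- 1 the highest of 6 for 33 and Otud1-/- 2 the lowest of its label for 37. The counts of 46, 25 and 19 are therefore not counts of independent observations. DESeq2 on the recovered reads called 10 of the 49, all higher in the libraries labelled Otud1-/-, against 3.98% of its genes. These were Mcm2 to Mcm7, Uhrf1, Rrm2, Ccne1 and Mybl2. edgeR called 0 of them, against 0.37%. limma itself called 6 when reads were scaled to the total of each library and 14 when scaled to 12 epithelial genes, against 1.47% and 4.93% of all genes called higher. Both scalings also raised the median of all genes, by 0.20 and 0.42. In bulk tissue a larger share of cycling cells and more RNA per cycling cell cannot be told apart.

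**Figure D1:**
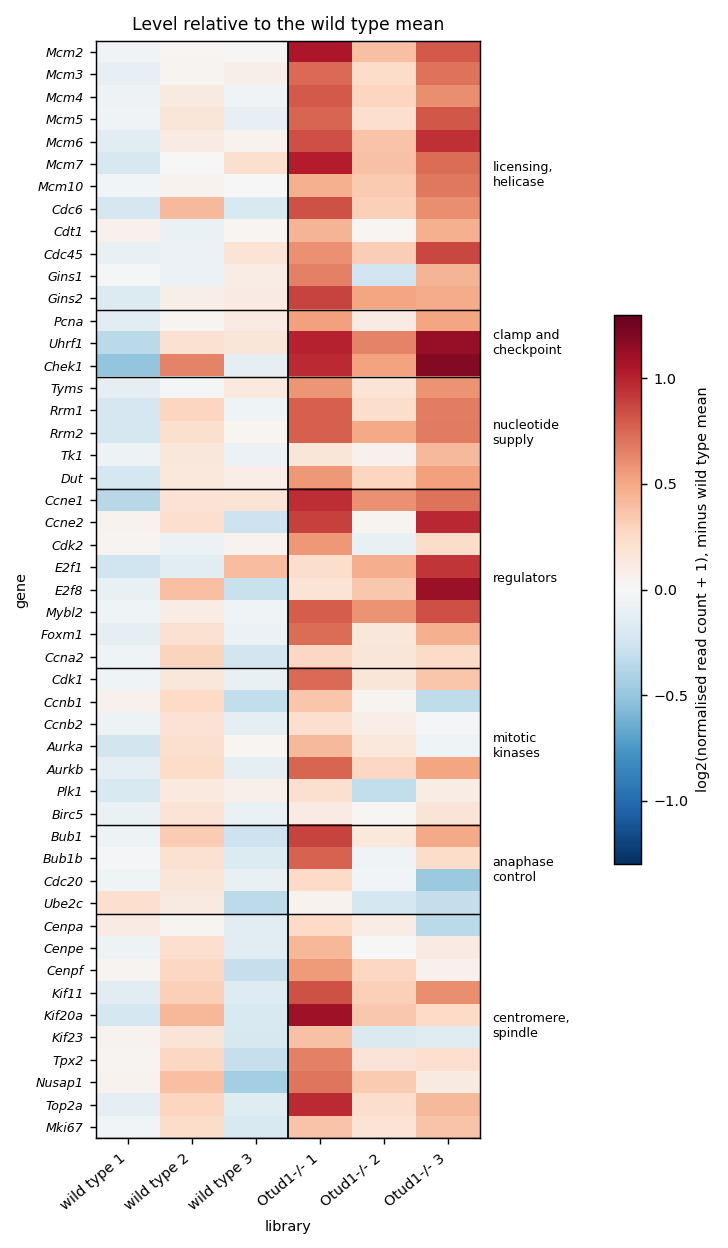
Level of each of the 49 genes (rows, grouped by class) in each of the 6 libraries (columns), as log2(normalised read count + 1) minus the wild type mean of that gene. The S-phase rows are above 0 across most of the libraries labelled Otud1-/-, most in 1 and 3, whereas the mitotic rows are high chiefly in Otud1-/- 1.

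The median difference was larger for S-phase genes than for mitotic genes, a contrast that is described here without a test. All 20 S-phase genes had a positive difference, with a median of 0.57 and a range from 0.21 for Tk1 to 0.93 for Uhrf1. In 14 of them the labels did not overlap and 17 reached the unadjusted level. All 8 regulators were positive as well, with a median of 0.55, and 2 did not overlap. Among the 21 mitotic genes the median was 0.29, from -0.16 for Ube2c to 0.58 for Kif11. Of these, 18 were positive, 5 reached the unadjusted level and 3 did not overlap, a share close to the 13.0% of all genes. The contrast depended on the genes taken. In the longer lists of other replication and other mitotic genes described below, the medians were closer together, 0.43 and 0.33.

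**Figure D2:**
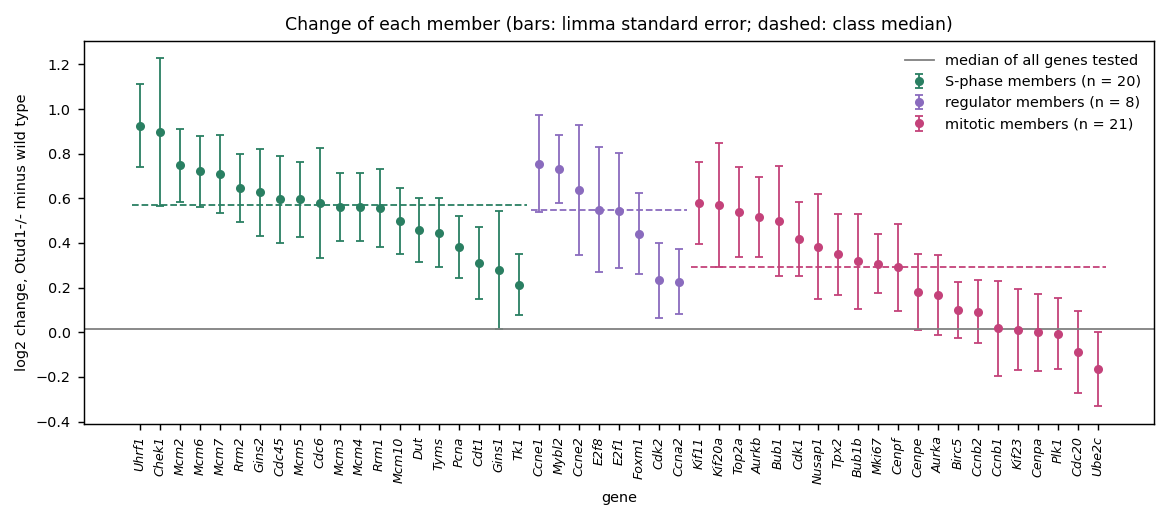
Log2 difference, libraries labelled Otud1-/- minus wild type, of each gene (points) with its limma standard error (bars), by class, with class medians as dashed lines and the median of all genes tested as a grey line. S-phase points lie between 0.21 and 0.93, and mitotic points spread from -0.16 to 0.58.

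The start regions of both classes hold different letters, which the choice of genes did not use. Examples are shown for 2 MCM genes picked because they hold letters bound by E2F factors, and for the 2 genes with the lowest differences. Mcm2, the MCM gene with the largest difference, holds no such letters and is not shown. The examples are RefSeq stretches of GRCm38.p6, each 170 bases long, 5′ to 3′ on the strand of the gene and ending at the base before the annotated start. Capitals mark, for Mcm6 and Mcm5, the letters that E2F factors are known to bind (TTTCCCGC, TTTCGCGC, TTTGCCGC or TTTGGCGC, read on both strands). For Cdc20 and Ube2c they mark TTTGAA on either strand, the cell cycle homology region known from genes of G2 and mitosis.
Mcm6: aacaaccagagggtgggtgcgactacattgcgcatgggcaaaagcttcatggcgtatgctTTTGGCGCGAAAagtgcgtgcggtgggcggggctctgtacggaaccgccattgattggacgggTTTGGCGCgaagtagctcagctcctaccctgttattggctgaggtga
Mcm5: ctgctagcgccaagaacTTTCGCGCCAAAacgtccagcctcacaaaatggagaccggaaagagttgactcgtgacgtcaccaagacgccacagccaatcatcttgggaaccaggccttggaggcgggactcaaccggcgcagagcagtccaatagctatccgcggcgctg
Cdc20: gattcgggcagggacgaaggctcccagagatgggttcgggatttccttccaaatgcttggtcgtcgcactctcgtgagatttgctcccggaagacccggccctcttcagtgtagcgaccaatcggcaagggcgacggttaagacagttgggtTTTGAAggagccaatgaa
Ube2c: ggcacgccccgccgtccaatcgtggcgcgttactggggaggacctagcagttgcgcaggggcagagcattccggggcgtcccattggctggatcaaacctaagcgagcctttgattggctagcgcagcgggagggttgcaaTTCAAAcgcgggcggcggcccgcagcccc
The Mcm6 stretch is chr1:128359706-128359875 on the minus strand, with 3 matches beginning at -110, -106 and -47 from the start, the first 2 of which overlap on opposite strands. For Mcm5 it is chr8:75109339-75109508 on the plus strand, with 2 overlapping matches at -153 and -149. The Cdc20 stretch, chr4:118437344-118437513 on the minus strand, has its match at -18. That of Ube2c, chr2:164769759-164769928 on the plus strand, has it at -29 on the opposite strand. The GENCODE gene models begin within the Cdc20 and Ube2c stretches, slightly before the RefSeq starts.

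Windows from 250 bases before to 50 after the start were present for 40 of the 49 genes. E2F letters were in 7 of 19 S-phase windows (36.8%), in 1 of 18 mitotic windows (5.56%) and in 2.26% of all 32851 windows. TTTGAA had the reverse pattern, with 13 of 18 mitotic windows (72.2%), 2 of 19 S-phase windows (10.5%) and 17.9% of all. CCAAT on either strand, the letters bound by NF-Y, was common in both, with 16 of 18 mitotic windows (88.9%) and 13 of 19 S-phase windows (68.4%) against 37.4% of all. The 8 genes with E2F letters and no TTTGAA had a median log2 difference of 0.59, and the 15 with TTTGAA and no E2F letters one of 0.29. For the 16 with neither the median was 0.48, and Cdk1, the 1 gene with both, stood at 0.42. All of the 8 but Cdk2 are S-phase genes and most of the 15 are mitotic, so these medians largely repeat the contrast of classes. Letters and class were not separated here. A match is a description of letters, and binding was not measured. Neither set was uniform: Cdk2, with E2F letters, was at 0.23, and Mcm2, with TTTGAA and no E2F letters, was at 0.75.

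The 6 subunits of the MCM helicase, the ring that unwinds DNA at the fork, lay close together in their differences, from 0.56 to 0.75. None of the 6 overlapped between labels, whereas 13.0% of all genes lay higher without overlap. DESeq2 called all 6, against 3.98% of its genes called higher. limma called 0, against 0.949% of all genes, and its adjusted p for the 6 ran from 0.0661 to 0.112. Mcm2 was 537, 565 and 559 normalised reads under the wild type label and 1152, 726 and 963 under the Otud1-/- label. All 3 libraries labelled Otud1-/- lay above all wild type libraries, and the ratio of means was 1.71 (log2 difference 0.75 ± 0.16 SE, 95% interval 0.38 to 1.12, limma adjusted p = 0.0661). Mcm6 was 693, 822 and 788 in wild type and 1372, 991 and 1480.4 under the Otud1-/- label, a ratio of 1.67. Mcm7 was 687, 787 and 918 in wild type and 1608, 1030.5 and 1309.9 under the Otud1-/- label, a ratio of 1.65. In both genes Otud1-/- 2 was the nearest to wild type, and the log2 differences were 0.72 ± 0.16 and 0.71 ± 0.18 (SE).

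The other 3 subunits had smaller differences of 0.56 to 0.59. Mcm3 was 611, 674 and 691 under the wild type label and 1100.0, 777 and 1071 under the Otud1-/- label. For Mcm4 the values were 474, 538 and 480.3 against 865, 602 and 756. Those of Mcm5 were 627, 717 and 597 against 1091, 750.4 and 1129. In each the gap between the highest wild type library and Otud1-/- 2 was narrow beside the gap to Otud1-/- 1 and 3. Summed over the 6 subunits, the normalised reads were 3627, 4103 and 4033 in wild type and 7188, 4877 and 6709 under the Otud1-/- label.

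The balance between the subunits, compared per length of exon, was similar by value under both labels, with a slightly lower share of Mcm3 under the Otud1-/- label. Mcm2 made up 8.86% ± 0.362 (SD, n = 3) of the summed subunits under the wild type label and 9.53% ± 0.572 under the Otud1-/- label. Mcm7 held 19.97% ± 2.14 and 20.8% ± 1.47, and Mcm6 held 18.3% ± 0.407 and 19.3% ± 1.36. For Mcm3 the share was 19.5% ± 0.456 against 18.4% ± 0.378. No share was tested, and each is a ratio of transcripts rather than of proteins, which assemble in equal number. The length joins the exons of all annotated transcripts of a gene, so the size of a share depends in part on the annotation.

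**Figure D3:**
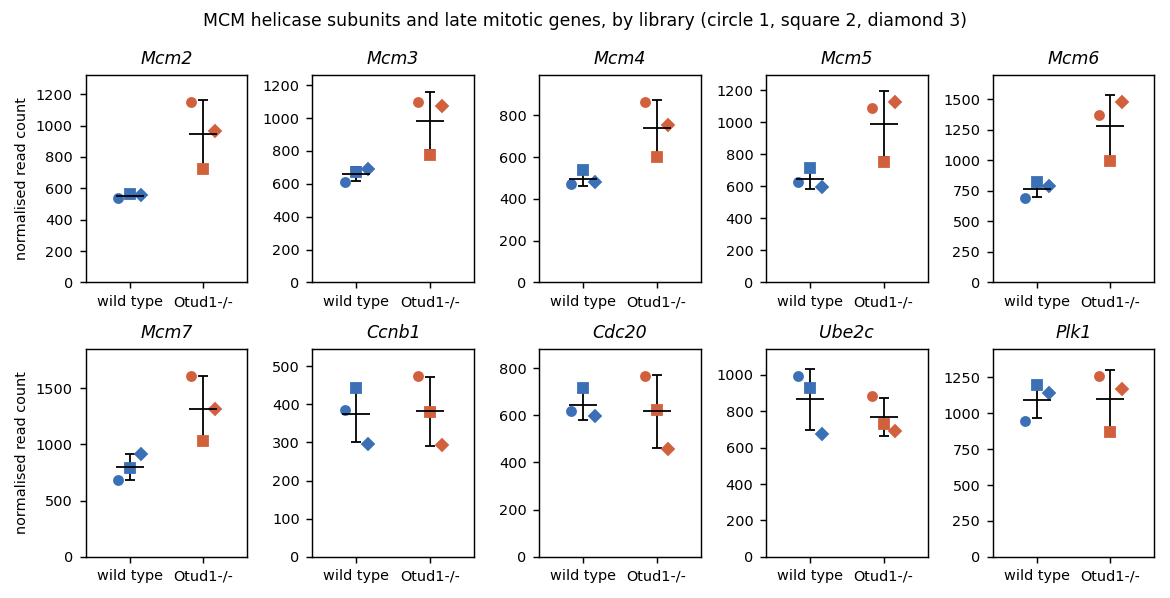
Normalised read count (vertical axis, from 0) of single genes under the wild type label and Otud1-/-, with library 1 as a circle, 2 as a square and 3 as a diamond. MCM subunits are separated between labels, with Otud1-/- 2 lowest of its label, whereas the mitotic genes shown (Ccnb1, Cdc20, Ube2c and Plk1) overlap. These were picked among the lowest differences and include all 3 mitotic genes below 0, so they are not typical of their class. Of all 21 mitotic genes, 18 were positive, 3 did not overlap and the median was 0.29.

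Licensing and helicase genes beyond the 6 subunits were positive as well. Of the 12 in this list, 9 did not overlap, against 13.0% of all genes in that direction, and the median was 0.59. The unadjusted level was reached by 10, all higher, against 9.5% of all genes. Gins2, 1 of the 9, shares 67.3% of its exon bases with another gene, so its value is uncertain. Besides the 6 subunits, these 12 are Mcm10 and Cdc45, which join the helicase as it fires, the loaders Cdc6 and Cdt1, and the GINS subunits Gins1 and Gins2. Gins1 had the largest p of the list. It was 96.0, 93.1 and 105 normalised reads under the wild type label and 154, 82.1 and 133 under the Otud1-/- label. Here Otud1-/- 2 was the lowest of all 6 libraries and the labels overlapped, with a log2 difference of 0.28 ± 0.26 (SE, limma adjusted p = 0.597).

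Uhrf1, which brings the maintenance DNA methyltransferase to newly copied DNA, had the largest difference of the 49 genes. It was 348, 513 and 496 normalised reads under the wild type label and 893, 697 and 976 under the Otud1-/- label. All 3 libraries labelled Otud1-/- were higher, at a ratio of 1.89 and a log2 difference of 0.93 ± 0.18 (SE, 95% interval 0.51 to 1.34, limma adjusted p = 0.0551). Chek1, the kinase that responds to stalled forks, was 43.2, 97.8 and 57.1 in wild type and 123, 90 and 144 under the Otud1-/- label. Its difference of 0.90 was as large, but the labels overlapped and the error was wider (0.33 SE, limma adjusted p = 0.19).

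Pcna, the clamp, was 1489, 1688 and 1765 normalised reads under the wild type label and 2373, 1769.6 and 2338 under the Otud1-/- label. The labels were separated by less than 5 reads, between wild type 3 and Otud1-/- 2, and the log2 difference was 0.38 ± 0.14 (SE, limma adjusted p = 0.189). Per kilobase of exon Pcna had the highest mean of the 49 genes, 686 normalised reads in wild type and 900.1 under the Otud1-/- label. Under the wild type label Chek1 had the lowest, 14.3, and under the Otud1-/- label it was at 25.7, above Cenpf at 22.7. Exon length here joins the exons of all annotated transcripts of a gene, whether or not they are used in colon. The order between genes therefore depends in part on the annotation.

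Of the 5 nucleotide supply genes 3 did not overlap between labels, against 13.0% of all genes in that direction, and the median difference was 0.46. Rrm2, the subunit of ribonucleotide reductase whose level is cell cycle dependent, was 321, 435 and 382 normalised reads under the wild type label and 646, 529.9 and 601 under the Otud1-/- label. Every library labelled Otud1-/- was higher, at a log2 difference of 0.65 ± 0.15 (SE, limma adjusted p = 0.0785). Rrm1, its large subunit, was 766, 1078 and 855 against 1529, 1046 and 1409. Otud1-/- 2 fell within the wild type range here, and the difference was 0.56 ± 0.18 (limma adjusted p = 0.138).

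Dut, which keeps uracil out of DNA by hydrolysing dUTP, was 430.4, 554 and 534 normalised reads in wild type and 746, 612 and 727 under the Otud1-/- label, without overlap, at a log2 difference of 0.46 ± 0.14. Tk1, the thymidine kinase of the salvage route, was 539, 627 and 534 against 631, 589 and 756. Its labels overlapped, and its difference of 0.21 ± 0.14 (SE, limma adjusted p = 0.424) was the smallest of the S-phase genes. Over Mcm2 to Mcm7, Pcna, Rrm1 and Rrm2 taken as 1 list of 9, the median was 0.59. Of these, 8 did not overlap, against 13.0% of all genes in that direction. DESeq2 called 7, against 3.98% of its genes called higher.

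Among the 8 regulators, the G1 cyclin Ccne1 and the transcription factor Mybl2 (B-Myb) were the 2 that did not overlap. Of all genes, 13.0% did not overlap in that direction. Mybl2 was 196, 218 and 197 normalised reads under the wild type label and 351, 305 and 363 under the Otud1-/- label. All 3 libraries labelled Otud1-/- were higher, with a ratio of 1.67 and a log2 difference of 0.73 ± 0.15 (SE, 95% interval 0.39 to 1.08, limma adjusted p = 0.0601). Ccne1, the cyclin that activates Cdk2 at the entry to S phase, was 98.1, 144 and 144 against 247, 191 and 208. All libraries labelled Otud1-/- were higher, at a difference of 0.75 ± 0.22 (SE, limma adjusted p = 0.116). Its partner Cdk2, which is regulated mostly at the protein level, was 533, 492 and 537 against 769, 485 and 614. The labels overlapped, at a difference of 0.23 ± 0.17 (limma adjusted p = 0.481). The other 5 (Ccne2, Ccna2, E2f1, E2f8 and Foxm1) were positive and overlapped.

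The mitotic genes were more mixed. Of the 7 genes for the mitotic kinases and their partners, 6 were positive and the median was 0.10. In this list 2 did not overlap, against 13.0% of all genes in that direction. Cdk1, the kinase that drives entry into mitosis, was 479.9, 553 and 464 normalised reads under the wild type label and 830.3, 553 and 639.8 under the Otud1-/- label. Otud1-/- 2 was above wild type 2 by less than 1 read, so the separation of labels was marginal (log2 difference 0.42 ± 0.16 SE, limma adjusted p = 0.211). Aurkb, the kinase of the chromosomal passenger complex, was 251, 323 and 249.8 against 461, 329.6 and 391. Its separation was narrow too, at 0.52 ± 0.18 (SE, limma adjusted p = 0.166). Plk1, a kinase of centrosome and spindle, was 948, 1194 and 1144 against 1260.4, 871 and 1168. One library labelled Otud1-/- was the highest of the 6 and another the lowest, and the difference was -0.01 ± 0.16 (95% interval -0.36 to 0.35, limma adjusted p = 0.991).

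Genes of the spindle checkpoint and the anaphase-promoting complex overlapped in 4 of 4. Bub1 and Bub1b, kinase and pseudokinase of the checkpoint, had positive differences of 0.50 ± 0.25 and 0.32 ± 0.21 (SE). Bub1 was 135, 179 and 117 normalised reads in wild type and 260.3, 155 and 199 under the Otud1-/- label, with Otud1-/- 2 inside the wild type range. Cdc20, an activator of the complex, was 618, 716 and 599 against 767, 624 and 459, which put libraries labelled Otud1-/- at both ends. Ube2c, its ubiquitin-conjugating enzyme, was 995, 928 and 677 against 885, 728 and 689, all 3 inside the wild type range. The log2 differences were -0.09 ± 0.18 for Cdc20 (95% interval -0.50 to 0.33) and -0.16 ± 0.17 for Ube2c (-0.54 to 0.21), so these intervals hold values in either direction. Ube2c was singled out after its value was seen, as 1 of the 3 genes below 0 beside Cdc20 and Plk1.

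Of the 10 genes of centromere, spindle and chromosome structure all were positive with a median of 0.33, and 1 did not overlap, a share below the 13.0% of all genes. Kif11, the motor that pushes spindle poles apart, was 314, 429 and 309 normalised reads under the wild type label and 614, 431 and 527 under the Otud1-/- label. It was the 1 without overlap, by about 2 reads, at a log2 difference of 0.58 ± 0.18 (SE, limma adjusted p = 0.139). Top2a, the topoisomerase that untangles sister chromatids, was 1426, 1873 and 1384 against 3022, 1811 and 2067. Wild type 2 lay above Otud1-/- 2, at a difference of 0.54 ± 0.20 (limma adjusted p = 0.203).

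Mki67, the proliferation marker Ki-67, was 1850.1, 2234 and 1655 normalised reads under the wild type label and 2460.3, 2149 and 2455 under the Otud1-/- label. Otud1-/- 2 lay below wild type 2, and the log2 difference was 0.31 ± 0.13 (SE, limma adjusted p = 0.248), close to the mitotic median. Cenpa, the histone of the centromere, was 489, 466 and 415 against 545, 487 and 357. Its labels overlapped widely, at a difference of 0.00 ± 0.17 (95% interval -0.39 to 0.39).

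The contrast of S-phase with mitotic genes was also taken within each library, where a common scaling factor cancels apart from the pseudocount. The mean log2 level of the 20 S-phase genes was 8.39, 8.65 and 8.57 under the wild type label and 9.26, 8.82 and 9.23 under the Otud1-/- label, without overlap. That of the 21 mitotic genes was 8.78, 9.05 and 8.64 against 9.35, 8.91 and 8.93, with overlap. The S-phase mean minus the mitotic mean was -0.39, -0.39 and -0.07 in wild type and -0.09, -0.10 and 0.30 under the Otud1-/- label. Wild type 3 stood slightly above Otud1-/- 1 and 2, so the labels overlapped. The means were -0.29 ± 0.18 and 0.04 ± 0.22 (SD, n = 3), and their difference of 0.32 compares with a pooled SD over libraries of 0.20. No p-value is given for a mean over chosen genes.

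**Figure D4:**
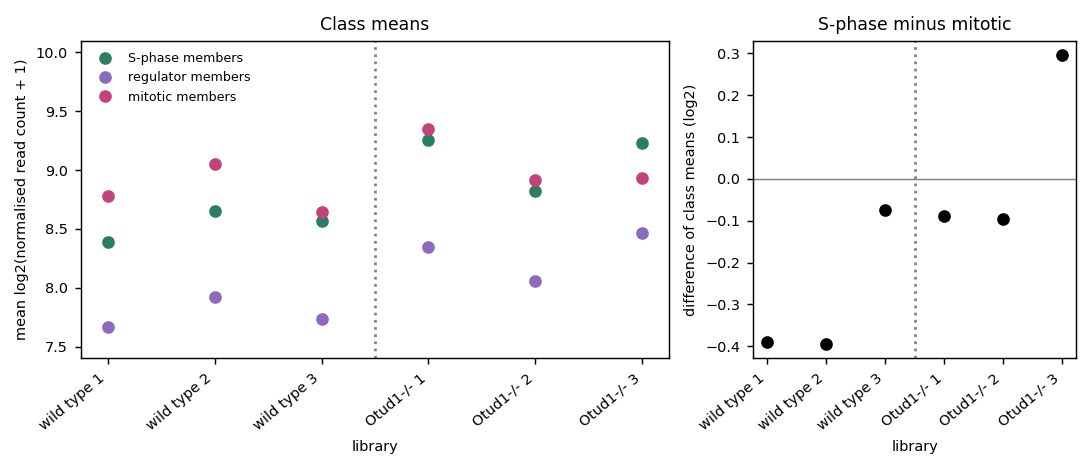
Mean log2(normalised read count + 1) of the S-phase, regulator and mitotic genes in each library (left), and the S-phase mean minus the mitotic mean (right). S-phase means do not overlap between labels, mitotic means do, and the within-library contrast of wild type 3 (-0.07) lies just above those of Otud1-/- 1 (-0.09) and 2 (-0.10).

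**Figure D5:**
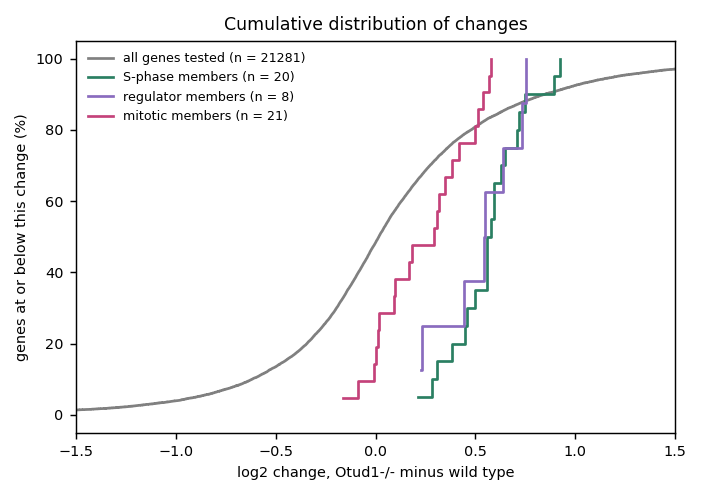
Percentage of genes at or below each log2 difference (horizontal axis, libraries labelled Otud1-/- minus wild type) for all 21281 genes tested and for the 3 classes. The median is 0.02 for all genes, 0.29 for mitotic genes and 0.57 for S-phase genes.

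The 3 libraries of a label were not alike. Otud1-/- 1 was the highest of the 6 libraries for 33 of the 49 genes, including 19 of 21 mitotic genes. Otud1-/- 3 was the highest for 9 of 20 S-phase genes and for 0 mitotic genes, and Otud1-/- 2 was the lowest of its label for 19 of 20 S-phase genes. Among the libraries labelled wild type, 1 was the lowest of the 6 for 16 of 20 S-phase genes, 3 was the lowest for 14 of 21 mitotic genes and 2 was the highest of its label for 19 of 21 mitotic genes. Without Otud1-/- 2 limma called 7 of the 49, Mcm2 to Mcm7 and Uhrf1, all higher in the libraries labelled Otud1-/-, against 0.299% of all genes in that direction. Without Otud1-/- 1 the mitotic median was 0.09 and 0 were called.

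Markers of several cell types also stood apart between the labels. Among all genes 13.0% did not overlap upwards and 13.3% downwards, and limma called 0.949%. All 12 crypt stem cell and Wnt target genes had a positive difference, 10 without overlap and 0 called, with a median of 1.88, and their summed normalised reads were 3311 to 7850 under the wild type label and 9943 to 31240.1 under the Otud1-/- label. The highest sum was in Otud1-/- 1 and the lowest in wild type 1. All 10 smooth muscle genes were positive, 10 without overlap and 3 called, with sums of 36076 to 39596 and 59406 to 122774. Of 12 epithelial genes 11 were negative, 6 without overlap and 0 called (sums 378030.2 to 440043.5 and 238349 to 373011). Of 10 distal colon genes 9 were negative, 3 without overlap and 1 called (sums 237776 to 256936 and 90291 to 168008). Their part in the result was not tested.

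Lists for immune cells, some of which divide quickly, had lower sums or overlapped. Of the 6 measured germinal centre B cell genes 5 were negative, with sums of 842 to 1053 under the wild type label and 667 to 784 under the Otud1-/- label. All 8 B and plasma cell, all 7 T cell and all 7 macrophage genes were negative, and the medians were -0.89, -0.47 and -0.75. Their sums were 26560.01 to 47126 against 14325 to 25678, 472 to 1339.6 against 346 to 683, and 9165 to 13020.3 against 6307 to 8026. Fibroblast genes (3 of 6 positive, median -0.07, sums 12801 to 15128 against 11824 to 16314) and endothelial genes (3 of 5 positive, median 0.14, sums 1326 to 1906 against 1449 to 2125) overlapped in their sums. Without overlap downwards were 5 macrophage, 2 germinal centre, 1 B and plasma cell and 0 T cell genes, against 13.3% of all genes. Upwards there was 1 endothelial gene. No gene of these lists was called and none was at 0 in any library. Their part in the result was not tested either.

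Further genes of the pathway were counted from lists chosen by function, with earlier results of these data known. They are therefore a description and not independent support. Of 48 other replication genes, 46 were positive, 26 did not overlap upwards and 2 downwards, and the median was 0.43. Among all genes 13.0% and 13.3% did not overlap in these directions. limma called 0, 23 reached the unadjusted level, all higher, against 9.5% of all genes, and DESeq2 called 10, against 3.98%. Chaf1b, a subunit of the factor that lays histones on new DNA, was 92.8, 95.9 and 135 normalised reads under the wild type label and 337, 192 and 265 under the Otud1-/- label. All 3 were higher, at a ratio of 2.46 and a log2 difference of 1.27 ± 0.25 (SE, limma adjusted p = 0.0551), above any of the 49 genes. Lig1, the ligase that joins lagging strand fragments, was 590.4 ± 29.9 and 901 ± 94.6 (SD, n = 3), and Pola2, a subunit of the primer-making polymerase, 311 ± 3.50 and 470.2 ± 19.6. Neither overlapped, at log2 differences of 0.60 and 0.59. Clspn, the adaptor that activates Chek1, was at 0.90 ± 0.22 (SE).

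Of 50 other mitotic genes, 43 were positive, 15 did not overlap upwards and the median was 0.33. limma called 0, and 14 reached the unadjusted level, all higher, against 9.5% of all genes. The 15 of 50 were a larger share than the 13.0% of all genes, and 0 did not overlap downwards, against 13.3%. DESeq2 called 2, about the share of 3.98% that it called higher among all genes. Fam83d, which places a kinase on the spindle, was 143, 166 and 183 normalised reads in wild type and 279.9, 280.1 and 280.5 under the Otud1-/- label. All 3 were higher and nearly equal, at 0.77 ± 0.17 (SE, limma adjusted p = 0.0622). The motor Kif15, the condensin II subunit Ncapg2 and the checkpoint gene Mad2l1 did not overlap, at 0.78, 0.60 and 0.56.

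A list of 24 genes of G1 control held cyclins, pocket proteins and CDK inhibitors and, beside them, Cdk4, Cdk6, Cdc25a, Myc, further E2F factors and the MuvB subunits Lin9 and Lin54. Its genes had no common direction, with 11 positive, 13 negative and a median of -0.04. The mean log2 level of the list was nevertheless higher without overlap, at 9.01, 9.11 and 9.07 under the wild type label and 9.24, 9.13 and 9.18 under the Otud1-/- label. limma called 0, and at the unadjusted level 5 were higher and 1 lower in the libraries labelled Otud1-/-, against 2021 and 2122 of all 21281 genes. Of these genes 5 did not overlap upwards and 3 downwards, against 13.0% and 13.3% of all genes. DESeq2 called 5, all higher, against 3.98% of its genes. Cdkn1c, an inhibitor of cyclin-dependent kinases, was 175 ± 16.9 and 346 ± 119 normalised reads (SD, n = 3), and Myc, a growth-promoting transcription factor and Wnt target, was 543 ± 114 and 889 ± 199. The repressor E2f7 was 64.7 ± 15.98 and 131 ± 31.8. These 3 did not overlap, at log2 differences of 0.92, 0.71 and 1.01. E2f2, an activating E2F, lay the other way without overlap, at 1317 ± 131 and 835 ± 237 and a difference of -0.70 ± 0.21 (SE, limma adjusted p = 0.137).

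Since the strand setting of the counting is not given in the sources used here, reads of overlapping genes cannot be told apart. In 15 of the 49 genes some exon bases are shared with another gene, and in 7 more than 10% of them. The largest shares were 67.3% for Gins2 with Gse1, 29.3% for Kif20a with Cdc23 and 22.8% for Ube2c with Tnnc2, so those values are uncertain. For 4 genes (Pcna, Tyms, Ccnb1 and Ccnb2) a pseudogene of the same name is annotated, with which reads could have been shared.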

How the data were processed

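RNA of colon beside tumours was sequenced in 3 libraries labelled wild type and 3 labelled Otud1-/-. The authors' deposited table holds a normalised signal per gene, and the submitters' processing notes name mm10 as the genome. No source used here names the aligner, the counter or the annotation. In each column 100% of values were whole multiples of a single step (within 0.001 of a read), and the steps were the reciprocals of median-of-ratios size factors, so the signal is the reads of a gene divided by a size factor. Every gene had at least 10 reads. Identifiers were matched to GENCODE release M21, which named 21336 of 21374. Genes at 1 or more in 3 or more libraries were tested with limma 3.58.1 in R 4.3.3 (trend and robust, two-sided, pseudocount of 1, Benjamini-Hochberg adjustment). edgeR 4.0.16 and DESeq2 1.42.0 on recovered reads were alternatives, with other filters, pseudocounts, scalings and libraries left out. Scripts were tested on simulated data. The members and lists were chosen with earlier results of these data known. Genes named in full were Mki67, Top2a, Pcna, Mcm2 to Mcm7, Rrm1 and Rrm2, of each of 7 functional lists the 2 with the smallest and the 1 with the largest p, and of each of 3 pathway lists the 4 with the smallest p.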

Additional observations from a re-analysis of the deposited data

How the results depend on the processing

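The precision is limited by 3 libraries per label. All 20 S-phase genes had a positive difference under each of the 20 settings. The count of the 49 genes called, 0 with the main settings, was 6 with scaling to total reads (1.47% of all genes were called higher), 14 with scaling to the epithelial list (4.93%), 10 with DESeq2 and 0 to 7 with a library left out. Of all genes, 202 were called, and this count was 122 with a mean of at least 5, 118 with a pseudocount of 0.1, 416 with total reads, 1143 with the epithelial list, 0 with limma without trend and robust, 62 and 65 with edgeR (TMM and DESeq2 size factors), 1412 with DESeq2, 394 without replicate 1 of both labels and 10 to 340 with a library left out. Called genes were higher in the libraries labelled Otud1-/- in 29.7% with the main settings, 75.2% with total reads, 91.8% with the epithelial list, 39.9% with quantile normalisation and 47.4% with DESeq2. Same-numbered libraries did not deviate together (correlations -0.26, -0.10 and -0.09), and with a replicate block 18 of all genes and 0 of the 49 were called. The S-phase median of 0.57 was 0.78 with total reads and 1.01 with the epithelial list, and the mitotic median of 0.29 was 0.73 with the latter. These scalings shifted the median of all genes by 0.20 and 0.42. With a library left out the S-phase median ran from 0.49 to 0.72, the mitotic median from 0.09 (without Otud1-/- 1) to 0.42 and the S-phase minus mitotic difference from 0.19 (without Otud1-/- 3) to 0.43 (without wild type 3). Genes near 0 turned sign, and the cause was not tested. Plk1 was 0.20 with total reads, 0.000424 with TMM, 0.091 with quantile normalisation, 0.43 with the epithelial list, 0.015 and 0.00577 with edgeR (TMM and DESeq2 size factors), 0.00579 with DESeq2 and -0.11 to 0.15 with a library left out. Cdc20 and Ube2c were 0.12 and 0.044 with total reads and 0.35 and 0.27 with the epithelial list, and Cdc20 ran from -0.26 to 0.11 with a library left out. Ccnb1 and Cenpa were -0.030 and -0.013 with quantile normalisation. With a library left out Ccnb1 ran from -0.15 to 0.19, Cenpa from -0.13 to 0.18 and Kif23 from -0.17 to 0.11. Without replicate 1 of both labels Ccnb1 was -0.12, Ccnb2 -0.00105, Aurka -0.079, Cenpa -0.0767 and Kif23 -0.15. Of 1159 values of single genes under alternatives, 1066 kept direction and side of the threshold, 64 passed it newly and 29 turned sign. None was called with the main settings, so none could lose a call, and 6 of the sign changes came from the scalings to total reads and to the epithelial list, which shift all genes.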
